A study of Mus musculus with 12 samples.

Results

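The genes described here are the Wnt ligands, their receptors and the secreted and intracellular genes that adjust the signal. They are the protein-coding genes whose symbols match the Wnt, Fzd, Dkk, Sfrp and Rspo families or are Lrp5, Lrp6, Axin2, Lef1, Tcf7, Apcdd1, Notum, Wif1 or Lgr5. The rule reads symbols only and gave 50 of the 47069 genes in the table: 19 Wnt ligands, 12 receptors, 5 genes of the R-spondin system, 11 inhibitors and 3 nuclear effector or feedback genes.

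Total RNA was sequenced from cells sorted for green fluorescence out of Pdgfra-H2BGFP mice, a knock-in line in which a nuclear histone-GFP fusion is made under the control of Pdgfra, the receptor gene that marks oligodendrocyte precursor cells (OPCs). All 12 libraries carry this allele, and the labels name no treatment. The 4 groups of 3 libraries are embryonic (E13.5) brain, embryonic (E13.5) spinal cord, and brain and spinal cord of pups at postnatal day 7 (P7). Brain means forebrain at both ages, and the mice were heterozygous for the allele, as the study's methods state. Per the study's methods each library pools tissue of several animals, of both sexes. The embryos' tissue was broken up by mechanical means alone, that of pups with an enzyme, so age and dissociation cannot be told apart. Histone-GFP can outlast the Pdgfra transcript. Per the methods, GFP was graded among P7 cells, and the dimmer cells, which lacked Pdgfra, were not taken into the analysis.

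In canonical Wnt signalling a secreted, lipid-modified Wnt protein binds a Frizzled receptor together with the co-receptor Lrp5 or Lrp6, and beta-catenin then joins Tcf and Lef factors at target genes such as Axin2. Secreted Frizzled-related proteins, Wif1 and Dickkopf proteins block the ligand or the co-receptor, while R-spondins acting through Lgr receptors protect Frizzled proteins from removal. In the oligodendrocyte lineage canonical Wnt signalling is known for delaying differentiation, and dorsal midline Wnt sources pattern the embryonic brain and cord.

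Promoter sequences are shown for 4 genes that the results below turn on: Wnt5b, Wnt11 and Wnt6, ligands that were higher in spinal cord than in brain at E13.5, and Axin2, the feedback gene. Each is a RefSeq window of 300 bases (250 before and 50 after the annotated start) in GRCm38.p6, read 5′ to 3′ on the gene's strand: Wnt5b at chr6:119449337-119449636 (minus strand), Wnt11 at chr7:98834862-98835161 (plus), Wnt6 at chr1:74771642-74771941 (plus) and Axin2 at chr11:108920099-108920398 (plus). Capitals mark the core word bound by Tcf and Lef factors, CTTTGAT, or its reverse complement, ATCAAAG, searched on both strands.
Wnt5b: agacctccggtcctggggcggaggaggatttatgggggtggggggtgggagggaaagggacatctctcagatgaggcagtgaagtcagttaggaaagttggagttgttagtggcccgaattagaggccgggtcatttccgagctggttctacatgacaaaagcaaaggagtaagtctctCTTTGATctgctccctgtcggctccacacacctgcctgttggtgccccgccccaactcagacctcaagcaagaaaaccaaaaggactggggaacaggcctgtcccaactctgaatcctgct
Wnt11: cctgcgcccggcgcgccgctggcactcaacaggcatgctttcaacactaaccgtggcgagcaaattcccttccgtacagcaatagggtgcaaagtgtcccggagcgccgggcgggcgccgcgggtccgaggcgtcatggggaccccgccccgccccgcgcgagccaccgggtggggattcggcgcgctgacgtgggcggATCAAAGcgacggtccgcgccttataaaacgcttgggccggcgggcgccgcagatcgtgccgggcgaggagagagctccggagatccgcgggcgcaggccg
Wnt6: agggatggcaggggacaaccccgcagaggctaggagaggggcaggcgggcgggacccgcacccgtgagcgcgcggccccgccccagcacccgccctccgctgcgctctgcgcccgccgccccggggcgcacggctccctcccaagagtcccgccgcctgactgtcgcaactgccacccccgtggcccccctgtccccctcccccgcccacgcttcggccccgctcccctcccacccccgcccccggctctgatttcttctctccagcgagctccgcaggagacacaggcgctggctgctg
Axin2: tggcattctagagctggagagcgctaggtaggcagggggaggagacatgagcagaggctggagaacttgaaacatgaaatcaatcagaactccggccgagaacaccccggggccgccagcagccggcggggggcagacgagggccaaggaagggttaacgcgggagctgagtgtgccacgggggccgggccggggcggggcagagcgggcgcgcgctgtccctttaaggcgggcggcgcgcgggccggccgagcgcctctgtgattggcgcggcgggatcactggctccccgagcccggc
The word is found 71 bases before the Wnt5b start as written and 51 bases before the Wnt11 start as its reverse complement. It does not occur in the Wnt6 or Axin2 window. The Wnt5b window is 1 of 3 that the table gives for the gene and the Wnt11 window 1 of 2. In each case the window shown is the one that holds the word, which the gene's other windows lack, and the Wnt5b window lies at an internal start, far from the gene's 5′ end at 119544347. Of the 50 genes, 31 have a window in the table, with 38 windows in all, and 2 of these windows (5.263%) hold the word, against 1225 of all 32851 windows (3.729%). These 2 are the Wnt5b and Wnt11 windows shown, so the 4 printed windows are not typical of the set. A match of letters is a description of the sequence and not a binding site.

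The reads recovered per library ranged from 12566345 to 38790312, and 3 reads corresponded to between 0.079 and 0.506 CPM, the authors' scaled read count relative to library size. Intervals and floors of this kind cover counting error only. E13.5 spinal cord replicate 3 stood apart: 41.0% of its reads lay in protein-coding genes, against 82.4% to 91.2% in the other libraries, and it has the highest floor. The OPC markers Pdgfra, Cspg4, Sox10, Olig1, Olig2 and Gpr17 were detected in every group and summed to 795 to 1406 CPM in E13.5 brain, 512 to 777 CPM in E13.5 cord and 8241 to 8673 CPM at P7. Markers of other cells moved with the groups. The 10 markers of vascular and leptomeningeal or fibroblast cells, such as the collagens Col1a1 and Col3a1, summed to 6166 to 9292 CPM in E13.5 brain, 11572 to 12994 CPM in E13.5 cord, 1185 to 1562 CPM in P7 brain and 1221 to 2648 CPM in P7 cord. The 7 markers of myelinating oligodendrocytes summed to 17815 to 23836 CPM in P7 cord and 1383 to 3510 CPM in P7 brain, with at most 62.9 CPM at E13.5. The 6 markers of choroid plexus or roof plate summed to 362, 69 and 106 CPM in E13.5 brain replicates 1, 2 and 3, and to 2.5 to 5.74 CPM in E13.5 cord. At P7 they summed to 60.1, 60.9 and 496 CPM in brain and to 149, 148 and 2.17 CPM in cord. Ttr alone was at 267 CPM in E13.5 brain replicate 1 and 484 CPM in P7 brain replicate 3.

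Of the 50 genes, 41 passed the filter of at least 0.7 CPM in at least 3 libraries and were tested. Wnt3a, Wnt8b and Dkk1 passed through E13.5 brain alone, so a difference was bound to appear for them. Rspo1, Wnt11 and Wnt16 reached 0.7 CPM in E13.5 libraries alone, so a fall with age was likewise bound to appear for them. The 9 genes that did not pass were the ligands Wnt1, Wnt2, Wnt8a, Wnt9b, Wnt10a and Wnt10b, the R-spondin Rspo4 and the inhibitors Dkk4 and Sfrp5. Dkk4 had no read in any library, and the highest value among the other 8 was 0.506 CPM, for Wnt2 in E13.5 spinal cord replicate 3. Differences below are on the log2(CPM + 0.5) scale with their standard error (SE), which understates changes of low genes. They were tested with limma across 18319 genes with Benjamini-Hochberg adjustment. A gene was called at an adjusted p under 0.05 and a change of more than 2-fold.

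**Figure D1:**
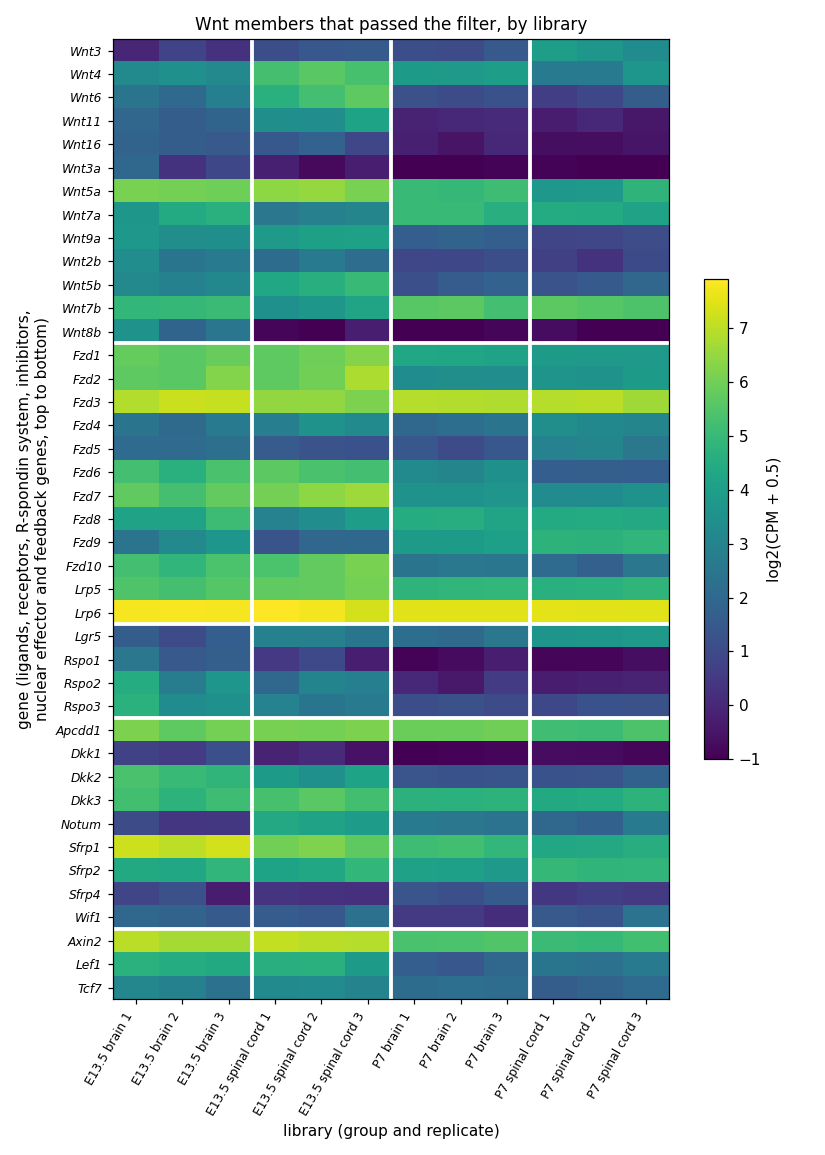
Level of the 41 tested genes (rows, grouped by role with white lines) in the 12 libraries (columns, 3 per group), as log2(CPM + 0.5). Rows such as Wnt5b, Wnt6, Wnt11, Fzd7, Rspo3, Dkk2 and Sfrp1 are brighter in the 6 E13.5 libraries on the left than in the 6 P7 libraries on the right. Wnt7b and Fzd9 are brightest in the P7 libraries, and other rows overlap between the ages.

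Most of the tested genes fell with age in each region. Between E13.5 and P7, 23 of 41 (56.1%) fell in brain, where 16.7% of all tested genes were called lower, and 23 of 41 (56.1%) fell in spinal cord, where 18.2% of all tested genes were called lower. Without Wnt3a, Wnt8b and Dkk1 the count in brain was 20 of 38 (52.6%). The counts of falls in each region and in both still hold Rspo1, Wnt11 and Wnt16, which passed through E13.5 libraries alone. In brain 1 gene, Notum, rose, where 11% of all tested genes were called higher. The count rising in brain depended on the processing: it was 3 with scaling factors recomputed by the trimmed mean of M values (TMM) or median ratios (Notum, Wnt3 and Lgr5) and with limma-voom (Notum, Wnt3 and Sfrp4), and 2 (Notum and Wnt3) with a pseudocount of 0.1, edgeR or DESeq2. Without E13.5 brain replicate 2 it was 3 and without replicate 3 it was 2. In cord 6 of 41 (14.6%) rose (Fzd5, Fzd8, Fzd9, Wnt3, Wnt7a and Wnt7b), a share near the 16.9% of all tested genes. The median difference was -1.37 in brain and -1.32 in cord, beside medians over all tested genes of -0.19 and 0.12. The same 19 genes fell in both regions, with 11.8% of all tested genes called lower in both: Axin2, Lef1, Rspo1, Rspo2, Rspo3, Sfrp1, Dkk2, Fzd1, Fzd2, Fzd6, Fzd7, Fzd10, Wnt2b, Wnt5a, Wnt5b, Wnt6, Wnt9a, Wnt11 and Wnt16. None rose in both, where 8.6% of all tested genes were called higher in both by limma. Under the alternatives that kept the age comparison the count falling in both was 17 to 21 and the count rising in both 0 or 1. In sorted bulk samples, fewer cells of a type and less RNA per cell cannot be told apart. Of the vascular and leptomeningeal or fibroblast markers, 9 of 10 were also called lower at P7 in brain and 10 of 10 in cord. Other markers moved as well. Of the neuron markers 2 of 7 were called lower in brain, and 3 lower and 1 higher in cord. Of 6 tested pericyte or mural markers 2 were lower and 2 higher in brain, and 5 lower and 1 higher in cord. All 6 OPC markers were called higher in both regions, as were 6 of 7 myelinating oligodendrocyte markers in brain and 7 of 7 in cord. The part of these cells in the falls was not tested.

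The scaling of the deposited values bears on the brain results. The deposited factors of the P7 brain libraries lie 16.3%, 13.1% and 13.1% above TMM factors recomputed from the recovered reads, while the other 9 libraries match. Recomputed factors moved the median over all tested genes from -0.19 to -0.02 for age in brain, from -0.19 to -0.02 for the region difference at P7, and from -0.24 to -0.07 for the change of the region difference. No called difference of these genes changed sign with the scaling.

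Among the ligands, 9 of 13 tested fell with age in brain (69.2%, against 16.7% of all tested genes). The 9 include Wnt3a and Wnt8b, which passed the filter through E13.5 brain alone. Wnt11 and Wnt16, which passed through E13.5 libraries alone, are among the falls of both regions. In spinal cord 8 fell (61.5%, against 18.2%) and 3 rose (23.1%, against 16.9%). Of the ligands called higher in spinal cord than in brain at E13.5, Wnt6, Wnt4, Wnt11 and Wnt5b had the largest differences. Wnt6 (ENSMUSG00000033227, chromosome 1, 74771892 to 74785322), a ligand known from ectoderm and from epithelial somites, was at 4.94, 3.65 and 6.70 CPM in E13.5 brain replicates 1, 2 and 3 and at 25.1, 37.9 and 51.5 CPM in E13.5 cord. At P7 it was at 1.82, 1.55 and 1.90 CPM in brain and 1.08, 1.42 and 2.61 CPM in cord. The embryonic cord libraries lay far above all others, and the P7 regions overlapped. Its fall was -1.28 (SE 0.30, adjusted p = 0.00245) in brain and -4.13 (SE 0.30, adjusted p = 8.17e-08) in cord. Brain minus cord was -2.77 (SE 0.30, adjusted p = 2.2e-05) at E13.5.

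Wnt4 (ENSMUSG00000036856, chromosome 4, 137277489 to 137299726), needed for kidney tubules and the female reproductive tract, was at 9.22, 10.6 and 8.63 CPM in E13.5 brain and 38.5, 48.9 and 39.8 CPM in E13.5 cord. It was at 14.0, 13.4 and 15.7 CPM in P7 brain and 5.83, 5.74 and 12.4 CPM in P7 cord, so the order of the regions was the opposite at P7, with replicate 3 of cord close to brain. Cord fell by 2.42 (SE 0.23, adjusted p = 1.21e-06), while the brain difference of 0.58 (SE 0.23) was not called. Brain minus cord was -2.10 (SE 0.23, adjusted p = 2.88e-05) at E13.5. At P7 it was 0.89 (SE 0.23), under the 2-fold limit. It passed that limit under TMM scaling (1.07) and without P7 spinal cord replicate 3 (1.24). The latter fit leaves only the nearly alike replicates 1 and 2 in P7 cord.

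Wnt11 (ENSMUSG00000015957, chromosome 7, 98835112 to 98855195), a ligand of beta-catenin-independent signalling that drives branching of the ureteric bud, was at 3.33, 2.59 and 3.16 CPM in E13.5 brain and 10.2, 9.96 and 17.5 CPM in E13.5 cord. All 6 P7 libraries were between 0.248 and 0.581 CPM, under the filter's 0.7 CPM, so a fall with age was bound to appear. Wnt11 fell with age by differences of -1.83 (SE 0.22) in brain and -3.90 (SE 0.22, adjusted p = 9.99e-09) in cord, and brain minus cord at E13.5 was -1.85 (SE 0.22, adjusted p = 5.26e-05). Wnt5b (ENSMUSG00000030170, chromosome 6, 119432531 to 119544347), known from cartilage, was at 8.60, 7.11 and 8.42 CPM in E13.5 brain and 19.3, 24.3 and 32.4 CPM in E13.5 cord. The P7 libraries lay between 1.76 and 3.38 CPM in the 2 regions together, which overlapped. Both regions fell, with differences of -1.56 (SE 0.23) in brain and -3.06 (SE 0.23, adjusted p = 1.18e-07) in cord, and brain minus cord at E13.5 was -1.57 (SE 0.23, adjusted p = 0.000242).

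Wnt5a, the prototype of beta-catenin-independent ligands, and Wnt9a, known from joint formation, showed no called region difference at E13.5. Wnt5a was at 69.1, 66.1 and 61.3 CPM in E13.5 brain, 83.6, 90.3 and 68.5 CPM in E13.5 cord, 31.9, 30.4 and 34.7 CPM in P7 brain, and 13.1, 13.2 and 27.4 CPM in P7 cord. No P7 library reached an E13.5 library, and within P7 cord replicate 3 stood above the other replicates. The fall was -2.22 (SE 0.22, adjusted p = 1.74e-06) in cord and -1.01 (SE 0.22, adjusted p = 0.00172) in brain. The brain call was lost under TMM scaling (-0.82), without E13.5 brain replicate 1 (-0.97) and without P7 brain replicate 2 (-0.96). Brain minus cord at P7 was 0.92 (SE 0.22). It was called without P7 cord replicate 3 (1.26), where only the nearly alike replicates 1 and 2 remained in P7 cord. The vascular and leptomeningeal or fibroblast markers summed to 2648 CPM in P7 cord replicate 3 and to 1255 and 1221 CPM in replicates 1 and 2. Their part in the Wnt4 and Wnt5a values of that library was not tested. Wnt9a was at 13.1, 10.1 and 10.4 CPM in E13.5 brain, 13.6, 16.4 and 16.7 CPM in E13.5 cord, 2.67, 3.11 and 2.64 CPM in P7 brain and 1.32, 1.36 and 1.68 CPM in P7 cord. It was low in all P7 libraries, and fell in both regions, with differences of -1.82 (SE 0.15) in brain and -3.04 (SE 0.15, adjusted p = 3.48e-09) in cord.

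Wnt7a, Wnt7b and Wnt3 went the other way and rose in the spinal cord. Wnt7a and Wnt7b are the ligands that act on brain endothelium in vessel ingrowth and barrier formation. Wnt7b (ENSMUSG00000022382, chromosome 15, 85535437 to 85582473) was at 29.3, 30.5 and 33.0 CPM in E13.5 brain, 10.7, 12.7 and 17.9 CPM in E13.5 cord, 47.7, 49.9 and 37.5 CPM in P7 brain, and 50.0, 47.4 and 42.9 CPM in P7 cord. The embryonic cord was the lowest group, and the P7 regions overlapped. It rose in cord by 1.76 (SE 0.16, adjusted p = 8.57e-07), and brain minus cord was 1.17 (SE 0.16, adjusted p = 0.00017) at E13.5 and -0.06 (SE 0.16) at P7. The antisense gene AU022754 overlaps it, at a mean of 3.08 CPM against 34.1 CPM over the 12 libraries, and the use of strand in counting was not stated.

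Wnt7a was at 12.6, 21.3 and 24.8 CPM in E13.5 brain, 5.30, 6.80 and 7.76 CPM in E13.5 cord, 31.7, 32.1 and 23.7 CPM in P7 brain and 21.8, 21.6 and 17.2 CPM in P7 cord. As with Wnt7b, embryonic cord was lowest. It rose in cord by 1.55 (SE 0.23, adjusted p = 5.25e-05), and brain minus cord at E13.5 was 1.46 (SE 0.23, adjusted p = 0.000393). Wnt3, a ligand needed for gastrulation and limb outgrowth, was at 0.475, 1.23 and 0.751 CPM in E13.5 brain, 1.73, 2.18 and 2.36 CPM in E13.5 cord, 1.70, 1.55 and 2.32 CPM in P7 brain, and 15.0, 12.4 and 9.62 CPM in P7 cord. It was thus low in every group but P7 cord, the group with the highest myelin markers, whose part in it was not tested. The brain difference with age was 0.86 (SE 0.23, adjusted p = 0.00643), under 2-fold, and was called under TMM scaling (1.0066), limma-voom (1.23), edgeR (1.17) and DESeq2 (1.18). Its rise in cord was 2.30 (SE 0.23, adjusted p = 2.02e-06), and brain minus cord at P7 was -2.44 (SE 0.23, adjusted p = 1.31e-05). The E13.5 region difference of -1.01 (SE 0.23) was lost under TMM scaling (-0.996) and without E13.5 brain replicate 1 (-0.81), E13.5 brain replicate 3 (-0.99), E13.5 cord replicate 2 (-0.98) or E13.5 cord replicate 3 (-0.93).

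Wnt8b and Wnt3a, ligands of the cortical hem and dorsal midline, were read mainly in embryonic brain. Wnt8b was at 11.1, 3.21 and 5.15 CPM in E13.5 brain (403 reads in all), with 3 reads in E13.5 cord, 2 in P7 brain and 4 in P7 cord. Wnt3a was at 3.56, 0.747 and 1.39 CPM in E13.5 brain (118 reads), with 10 reads in E13.5 cord and 1 in each P7 region. Both were highest in E13.5 brain replicate 1, the E13.5 library with the most choroid plexus or roof plate RNA. In P7 brain replicate 3 these markers summed to 496 CPM, of which 484 CPM was Ttr. Lmx1a, another of these markers, was there at 0.317 CPM, and in E13.5 brain at 9.93, 1.98 and 2.63 CPM. Wnt8b was at 0.0528 CPM and Wnt3a at 0.0264 CPM in P7 brain replicate 3. The part of this RNA in the Wnt8b and Wnt3a values was not tested. Fitted differences for genes this close to 0 depend on the pseudocount. Wnt16 and Wnt2b fell in both regions from low levels: Wnt16, known from bone, ranged from 1.35 to 3.04 CPM at E13.5 and from 0.123 to 0.528 CPM at P7, and Wnt2b, known from the eye margin, from 3.93 to 9.98 CPM at E13.5 and from 0.740 to 1.72 CPM at P7. Their age ranges did not overlap, and the falls were -1.88 and -1.85 in brain (SE 0.23 and 0.26) and -1.99 and -1.68 in cord (SE 0.23 and 0.26).

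**Figure D2:**
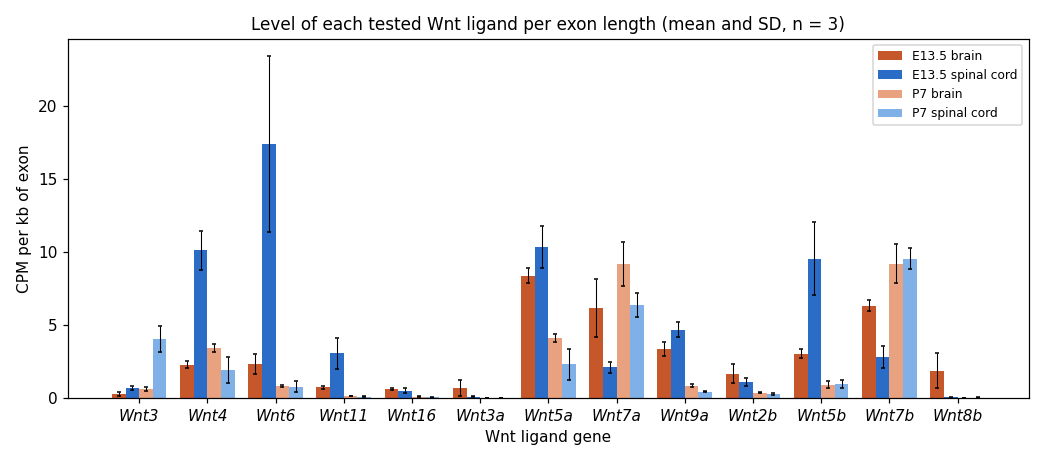
Mean level of the 13 tested Wnt ligands per kilobase of exon (bars, CPM per kb from 0; error bars, SD over 3 libraries) in the 4 groups. Wnt6 is the highest bar in E13.5 spinal cord, at 17.4 CPM per kb, while Wnt7b and Wnt7a are the highest bars in P7 brain, both at 9.20 CPM per kb.

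Levels can be compared between genes only per length. Per kilobase of exon the leading ligand of E13.5 brain was Wnt5a, at 8.37 ± 0.497 CPM per kb (SD, n = 3), followed by Wnt7b at 6.31 ± 0.387 and Wnt7a at 6.17 ± 1.98, which did not differ beyond their spread. In E13.5 cord Wnt6 had the highest mean, at 17.4 ± 6.02 CPM per kb. Its SD range met those of Wnt5a at 10.3 ± 1.43, Wnt4 at 10.1 ± 1.35 and Wnt5b at 9.54 ± 2.49, 3 neighbours within their spread of each other. Wnt6 was highest in E13.5 cord replicate 3 (51.5 CPM), the library with 41.0% of its reads in protein-coding genes. At P7 Wnt7b led in cord at 9.55 ± 0.726 CPM per kb, above Wnt7a at 6.37 ± 0.809, and in brain the same pair led, at 9.20 ± 1.35 and 9.20 ± 1.51 CPM per kb.

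Among the receptors, 5 of 12 fell in brain (41.7%, against 16.7% of all tested genes) and none rose (against 11%). In spinal cord 6 fell (50%, against 18.2%) and 3 rose (25%, against 16.9%). The Frizzled genes Fzd1, Fzd2, Fzd6, Fzd7 and Fzd10, which encode Wnt receptors, fell in both regions. Fzd7 was at 53.1, 38.9 and 53.8 CPM in E13.5 brain and 66.7, 84.8 and 96.3 CPM in E13.5 cord, against 11.2, 11.6 and 12.1 CPM in P7 brain and 9.29, 9.72 and 11.5 CPM in P7 cord. Every E13.5 library lay above every P7 library, with differences of -2.0 (SE 0.15, adjusted p = 2.39e-07) in brain and -2.95 (SE 0.15, adjusted p = 4.93e-09) in cord. Fzd10 was at 37.4, 28.6 and 41.7 CPM in E13.5 brain, 41.8, 53.7 and 69.3 CPM in E13.5 cord, 4.91, 5.46 and 5.18 CPM in P7 brain, and 3.86, 2.84 and 5.27 CPM in P7 cord. The ages were as clearly apart, and the falls were -2.66 (SE 0.22) in brain and -3.63 (SE 0.22, adjusted p = 1.64e-08) in cord.

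Fzd2 was at 52.0, 49.2 and 77.2 CPM in E13.5 brain, 51.9, 64.7 and 112 CPM in E13.5 cord, 9.66, 9.99 and 9.95 CPM in P7 brain, and 11.7, 11.4 and 13.9 CPM in P7 cord. Its fall was nearly the same in the 2 regions, -2.50 and -2.51 (SE 0.24 for each). Fzd1 was at 55.2, 49.7 and 57.5 CPM in E13.5 brain, 51.5, 61.1 and 76.8 CPM in E13.5 cord, 20.1, 18.9 and 17.2 CPM in P7 brain, and 14.1, 13.8 and 13.6 CPM in P7 cord. The regions overlapped at E13.5, and the falls were -1.51 (SE 0.13) in brain and -2.13 (SE 0.13, adjusted p = 1.64e-08) in cord. Fzd2 and Fzd7 were highest in replicate 3 of both embryonic regions, and Fzd1 and Fzd10 likewise.

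Fzd6, a receptor that also acts in planar polarity, and Fzd10 were the receptors with the largest falls in cord. It was at 37.3, 24.5 and 40.5 CPM in E13.5 brain, 50.1, 40.9 and 37.6 CPM in E13.5 cord, 9.18, 7.80 and 10.6 CPM in P7 brain, and 2.67, 2.71 and 2.70 CPM in P7 cord. The regions overlapped at E13.5 and were apart at P7. The fall was called in both regions, with differences of -3.75 (SE 0.18, adjusted p = 2.84e-09) in cord and -1.81 (SE 0.18) in brain, and brain minus cord was 1.59 (SE 0.18, adjusted p = 4.95e-05) at P7.

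Fzd9, Fzd5 and Fzd8 rose with age in spinal cord. Fzd9 was at 4.89, 8.65 and 12.4 CPM in E13.5 brain, 1.97, 3.33 and 3.54 CPM in E13.5 cord, 13.9, 14.0 and 15.8 CPM in P7 brain, and 26.4, 26.1 and 29.0 CPM in P7 cord. Its region order turned from higher in brain at E13.5 (1.35, SE 0.27, adjusted p = 0.00199) to higher in cord at P7, where the difference of -0.88 (SE 0.27) stayed under the 2-fold limit. It rose in cord by 3.04 (SE 0.27, adjusted p = 5.45e-07). Fzd5, which ranged from 1.62 to 7.90 CPM, rose in cord by 1.49 (SE 0.18, adjusted p = 7.83e-06), to 5.34 to 7.90 CPM, and brain minus cord at P7 was -1.55 (SE 0.18, adjusted p = 4.98e-05). Fzd8 was at 17, 17 and 34 CPM in E13.5 brain, 7.33, 9.82 and 15.0 CPM in E13.5 cord, 22.6, 22.9 and 17.8 CPM in P7 brain and 21.6, 21.8 and 20.6 CPM in P7 cord. Embryonic cord was lowest, with a rise of 1.02 (SE 0.27, adjusted p = 0.00466) in cord and a region difference of 1.03 (SE 0.27, adjusted p = 0.0114) at E13.5. The rise was lost without E13.5 cord replicate 1 (0.79) or 2 (0.99), and the region difference without E13.5 brain replicate 3 (0.70), cord replicate 1 (0.79) or cord replicate 2 (0.99).

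The co-receptors moved less. Lrp5 was at 43.1, 38.6 and 47.2 CPM in E13.5 brain, 52.9, 54.9 and 66.5 CPM in E13.5 cord, 27.2, 28.7 and 29.6 CPM in P7 brain and 24.7, 25.4 and 27.7 CPM in P7 cord. The ages did not overlap, and it fell by 1.14 (SE 0.11, adjusted p = 8.49e-07) in cord, while the brain difference of -0.58 (SE 0.11) was under 2-fold. Lrp6 ranged from 163 to 242 CPM over the 12 libraries and was called in no comparison. Fzd3, which acts in axon guidance, ranged from 71.5 to 149 CPM and Fzd4, the receptor for norrin, from 3.57 to 11.2 CPM, and neither was called. Fzd4 was lower in brain than in cord by a difference of -0.98 (SE 0.21) at P7 and -0.82 (SE 0.21) at E13.5, and it was called at P7 by limma-voom, edgeR and DESeq2 (-1.06 in each) and without P7 brain replicate 3 (-1.08), P7 cord replicate 2 (-1.01) or P7 cord replicate 3 (-1.06), and at E13.5 without E13.5 cord replicate 1 (-1.01). Per kilobase, Lrp6 was the leading receptor gene at P7, at 13.3 CPM per kb in both regions (SD 0.101 in brain and 0.328 in cord, n = 3), with Fzd9 at 11.8 ± 0.701 in cord. At E13.5 Fzd2 was at 16.2 ± 4.21 CPM per kb in brain and 20.8 ± 8.57 in cord, within its spread of the neighbours Lrp6 at 16.4 ± 0.0887 in brain and Fzd7 at 18.2 ± 3.30 in cord.

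**Figure D3:**
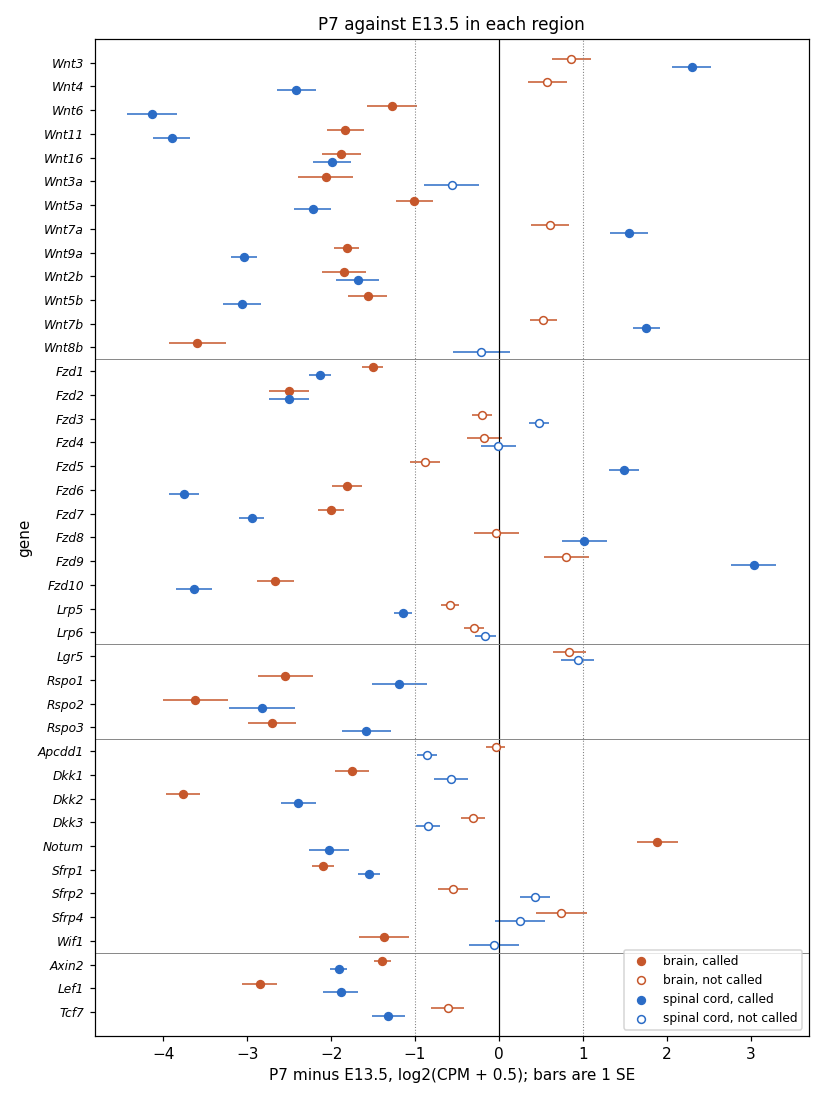
P7 minus E13.5 on the log2(CPM + 0.5) scale for the 41 tested genes (rows, grouped by role), in brain (orange) and spinal cord (blue). Bars are 1 SE, filled points were called and dotted lines mark the 2-fold limit. Most points lie left of 0 in both regions, Notum lies at 1.89 in brain and -2.03 in cord, and Wnt3 and Fzd9 lie right of 2 in cord.

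The R-spondins Rspo1, Rspo2 and Rspo3, secreted agonists that raise Frizzled levels, fell in both regions, while the receptor Lgr5 did not. Rspo3 was at 25.6, 9.66 and 10.7 CPM in E13.5 brain, 7.21, 5.02 and 6.07 CPM in E13.5 cord, 1.73, 1.82 and 1.58 CPM in P7 brain and 1.43, 1.85 and 1.80 CPM in P7 cord. The P7 libraries lay together and under every E13.5 library. It fell in both regions, with differences of -2.70 (SE 0.29, adjusted p = 4.96e-06) in brain and -1.58 (SE 0.29, adjusted p = 0.000337) in cord. The E13.5 region difference of 1.14 (SE 0.29, adjusted p = 0.00964) dropped to 0.71 without E13.5 brain replicate 1 and was then not called. Rspo2 was at 22.4, 6.41 and 12.3 CPM in E13.5 brain, 3.51, 7.60 and 6.75 CPM in E13.5 cord, and 0.265 to 0.951 CPM in the P7 libraries. The E13.5 regions overlapped, with a difference of 1.03 (SE 0.39, adjusted p = 0.0618) that was called without E13.5 brain replicate 2 (1.47) or E13.5 cord replicate 3 (1.15). The falls were -3.62 (SE 0.39) in brain and -2.82 (SE 0.39, adjusted p = 3.35e-05) in cord.

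Rspo1 ranged from 2.28 to 5.32 CPM in E13.5 brain, from 0.337 to 1.47 CPM in E13.5 cord and from 0.0303 to 0.343 CPM at P7. It fell by 2.55 (SE 0.33, adjusted p = 2.34e-05) in brain and in cord by 1.19 (SE 0.33, adjusted p = 0.00585), the latter lost without E13.5 cord replicate 2 (-0.90). Its E13.5 region difference was 1.51 (SE 0.33, adjusted p = 0.0035). All 3 R-spondins were highest in E13.5 brain replicate 1, where the choroid plexus or roof plate markers were also highest for E13.5. With these markers at 496 CPM in P7 brain replicate 3, Rspo1, Rspo2 and Rspo3 were there at 0.343, 0.951 and 1.58 CPM. Of that marker sum 484 CPM was Ttr, and Lmx1a was at 0.317 CPM. The part of these markers' cells in the R-spondin values was not tested. Lgr5, the stem cell receptor for R-spondins, was at 2.57, 1.58 and 2.68 CPM in E13.5 brain, 7.09, 6.89 and 5.06 CPM in E13.5 cord, 4.18, 3.74 and 5.33 CPM in P7 brain, and 11.8, 12.6 and 13.2 CPM in P7 cord. Cord was above brain at each age without overlap, with brain minus cord at -1.31 (SE 0.20, adjusted p = 0.000286) at E13.5 and -1.42 (SE 0.20, adjusted p = 0.000219) at P7. Its age differences of 0.84 in brain and 0.94 in cord (SE 0.20) were under 2-fold. The brain difference was called under TMM scaling (1.0048), and the cord difference without E13.5 cord replicate 1 (1.02) or replicate 2 (1.0021).

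Among the inhibitors, 4 of 9 tested fell in brain (44.4%, against 16.7% of all tested genes) and 1 rose (11.1%, against 11%). Dkk1, which passed the filter through E13.5 brain alone, is 1 of the 4. In spinal cord 3 fell (33.3%, against 18.2%). Notum (ENSMUSG00000042988, chromosome 11, 120653788 to 120661175) encodes a secreted enzyme that removes the lipid from Wnt proteins, and its own transcription answers to Wnt. It was at 1.62, 0.834 and 0.858 CPM in E13.5 brain, 20.2, 17.3 and 14.5 CPM in E13.5 cord, 5.91, 5.29 and 4.75 CPM in P7 brain, and 3.40, 2.90 and 5.68 CPM in P7 cord. Embryonic brain was lowest and embryonic cord highest, and the regions overlapped at P7. It rose in brain by 1.89 (SE 0.24, adjusted p = 2.42e-05) and fell by 2.03 (SE 0.24, adjusted p = 8.92e-06) in cord, the only gene of the set called in opposite directions. Brain minus cord was -3.50 (SE 0.24, adjusted p = 6.13e-07) at E13.5 and 0.42 (SE 0.24) at P7. Of its 75-base stretches, 26.2% lie in 2 overlapping antisense genes, which were counted at means of at most 0.335 CPM against 6.94 CPM for Notum.

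Sfrp1, a secreted Frizzled-related protein that binds Wnts, was at 152, 132 and 158 CPM in E13.5 brain, 64.2, 72.5 and 51.6 CPM in E13.5 cord, 35.3, 36.8 and 29.8 CPM in P7 brain, and 19.6, 20.2 and 23.2 CPM in P7 cord. The 4 groups did not overlap. Sfrp1 fell with age, with differences of -2.10 (SE 0.13, adjusted p = 4.19e-08) in brain and -1.55 (SE 0.13, adjusted p = 3.71e-07) in cord, and brain minus cord was 1.23 (SE 0.13, adjusted p = 2.1e-05) at E13.5 and 0.68 (SE 0.13), under 2-fold, at P7. Per kilobase it was the leading inhibitor of E13.5 brain at 33.6 ± 3.10 CPM per kb, above Sfrp2 at 10.8 ± 2.22 and Dkk3 at 9.70 ± 1.62, while in P7 cord Sfrp2 led, ahead of Dkk3 at 6.86 ± 0.919 (SD, n = 3).

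Dkk2, a Dickkopf protein that binds Lrp co-receptors, was at 40.4, 31.7 and 27.7 CPM in E13.5 brain, 13.9, 10.6 and 17.7 CPM in E13.5 cord, 2.03, 1.85 and 1.98 CPM in P7 brain, and 1.89, 1.97 and 2.92 CPM in P7 cord. The embryonic regions were apart and the P7 regions overlapped. The falls with age were differences of -3.77 (SE 0.20, adjusted p = 1.33e-08) in brain and -2.39 (SE 0.20) in cord, with a region difference of 1.22 (SE 0.20, adjusted p = 0.000649) at E13.5. Dkk1, which blocks Lrp6, was read at 1.01 to 1.77 CPM in E13.5 brain, 0.169 to 0.578 CPM in E13.5 cord and at most 0.108 CPM at P7, where brain held 3 reads in all. Its E13.5 region difference of 1.03 (SE 0.20) was lost without E13.5 cord replicate 3 (0.84). Wif1, which sequesters Wnts, was at 2.36 to 3.42 CPM in E13.5 brain, 2.27 to 4.56 CPM in E13.5 cord, 0.634 to 0.939 CPM in P7 brain and 1.97 to 4.81 CPM in P7 cord. It fell by 1.37 (SE 0.30, adjusted p = 0.00152) in brain, and brain minus cord at P7 was -1.33 (SE 0.30, adjusted p = 0.00524), a value of -0.996 and no call without P7 cord replicate 3.

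Apcdd1, Dkk3, Sfrp2 and Sfrp4 were called in no comparison with the deposited scaling and limma. Apcdd1, a membrane protein that binds Wnt and Lrp5, ranged from 34.3 to 71.9 CPM over the 12 libraries, and Dkk3, a Dickkopf relative that does not bind Lrp6, from 20.8 to 49.3 CPM. Sfrp2 ranged from 13.8 to 30.3 CPM and Sfrp4 from 0.322 to 2.38 CPM. A difference under 2-fold with a small adjusted p was still seen for some of them, such as -0.86 (SE 0.12, adjusted p = 2.52e-05) for Apcdd1 with age in cord. Alternatives called some of them. Sfrp4 was called for age in brain by limma-voom and without E13.5 brain replicate 2 (1.06 in each), and higher in P7 brain than in P7 cord by limma-voom, edgeR and DESeq2 (1.11 in each). For the change of the region difference, Apcdd1 was called under TMM (1.0068) and median-ratio scaling (1.15), and Sfrp2 by limma-voom (-1.09), edgeR (-1.02) and DESeq2 (-1.01).

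The nuclear effector or feedback genes of the set fell in spinal cord, 3 of 3, where 18.2% of all tested genes were called lower. In brain 2 of 3 fell, where 16.7% were. Axin2 (ENSMUSG00000000142, chromosome 11, 108920349 to 108950783), a scaffold of the beta-catenin destruction complex and a direct target of the pathway, was at 127, 106 and 105 CPM in E13.5 brain and 136, 128 and 121 CPM in E13.5 cord. It was at 40.7, 41.6 and 45.2 CPM in P7 brain and 33.0, 31.3 and 37.0 CPM in P7 cord. The ages were far apart and the E13.5 regions overlapped. Axin2 fell in both regions, with differences of -1.39 (SE 0.10, adjusted p = 1.3e-07) in brain and -1.91 (SE 0.10, adjusted p = 5e-09) in cord. Lef1, a factor that binds beta-catenin at target genes, was at 25.3, 22.7 and 21 CPM in E13.5 brain, 23.5, 24.6 and 14.2 CPM in E13.5 cord, 2.64, 2.18 and 3.56 CPM in P7 brain, and 5, 4.63 and 5.71 CPM in P7 cord. No P7 library reached an E13.5 library. Lef1 fell in both regions, with differences of -2.85 (SE 0.21, adjusted p = 1.62e-07) in brain and -1.89 (SE 0.21, adjusted p = 4.29e-06) in cord. Tcf7, a related factor, ranged from 4.67 to 9.42 CPM at E13.5 and from 2.62 to 4.23 CPM at P7. It fell by 1.32 (SE 0.20, adjusted p = 6.66e-05) in cord, and its brain difference of -0.61 (SE 0.20) was under 2-fold. Outside the set, Tcf7l1 fell in both regions, by -1.85 in brain and -2.16 in cord (SE 0.16 for each). Tcf7l2 went the other way in cord, with a rise of 1.01 (SE 0.22, adjusted p = 0.00141), while its brain difference of -0.59 (SE 0.22) was not called. Brain minus cord for Tcf7l2 was -1.04 (SE 0.22, adjusted p = 0.00433) at P7.

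**Figure D4:**
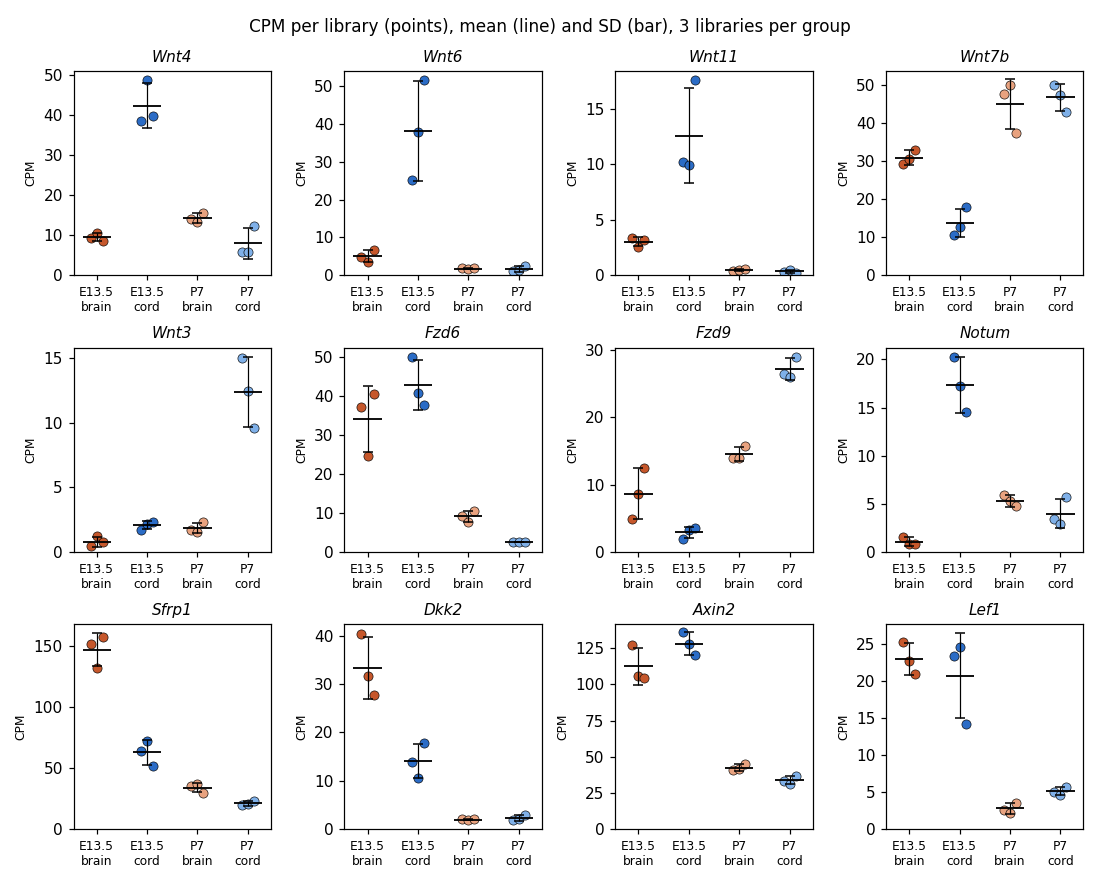
CPM of 12 genes in each library (points) with the group mean (line) and SD (bar), 3 libraries per group, each axis from 0 with its own range. Wnt4, Wnt6, Wnt11 and Notum are highest in E13.5 spinal cord, Wnt3 and Fzd9 in P7 spinal cord, Sfrp1 and Dkk2 in E13.5 brain, and Axin2 and Lef1 are higher in all 6 E13.5 libraries than in the P7 libraries.

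The comparison of regions at each age asks how far these genes told brain from spinal cord. At E13.5, 11 of 41 (26.8%) were higher in brain, where 3.53% of all tested genes were called, and 7 (17.1%) were higher in cord, where 5.17% were. Without Wnt3a, Wnt8b and Dkk1, which passed the filter through E13.5 brain alone, 8 of 38 (21.1%) were higher in brain. Those higher in brain were Wnt3a, Wnt7a, Wnt7b, Wnt8b, Fzd8, Fzd9, Rspo1, Rspo3, Dkk1, Dkk2 and Sfrp1, and those higher in cord Wnt3, Wnt4, Wnt5b, Wnt6, Wnt11, Lgr5 and Notum. The median difference was -0.02, beside 0.05 over all tested genes. In the same comparison 4 of 5 tested choroid plexus or roof plate markers were called higher in brain, and 3 of 10 vascular and leptomeningeal or fibroblast markers were called higher in cord and 1 in brain. Of the OPC markers 4 of 6 were called higher in brain, with a median difference of 1.25, while 3 of 5 tested endothelial and 2 of 5 tested microglia markers were called higher in cord. Their part in the region differences was not tested.

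At P7 there were 5 calls: Fzd6 was higher in brain (1 of 41, 2.44%, against 2.27% of all tested genes) and Lgr5, Wnt3, Fzd5 and Wif1 were higher in cord (4 of 41, 9.76%, against 4.35%). With TMM scaling the split was 3 higher in brain and 4 in cord, since Wnt4 and Wnt5a passed the 2-fold limit in brain. The median was 0.14, beside -0.19 over all tested genes. All 7 myelinating oligodendrocyte markers were called higher in cord at P7, while 4 of 5 tested microglia markers and 3 of 10 vascular and leptomeningeal or fibroblast markers were called higher in brain, and their part in the P7 calls was not tested. Lgr5 and Wnt3 were called at both ages, and Fzd5, Fzd6 and Wif1 at P7 alone. The other genes called at E13.5 were not called at P7. Among them are Wnt3a, Wnt8b and Dkk1, which passed the filter through E13.5 brain alone. The share of all tested genes with each of these patterns was not computed. A gene called at E13.5 and not at P7 is not thereby shown to have changed its region difference, which is tested next.

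**Figure D5:**
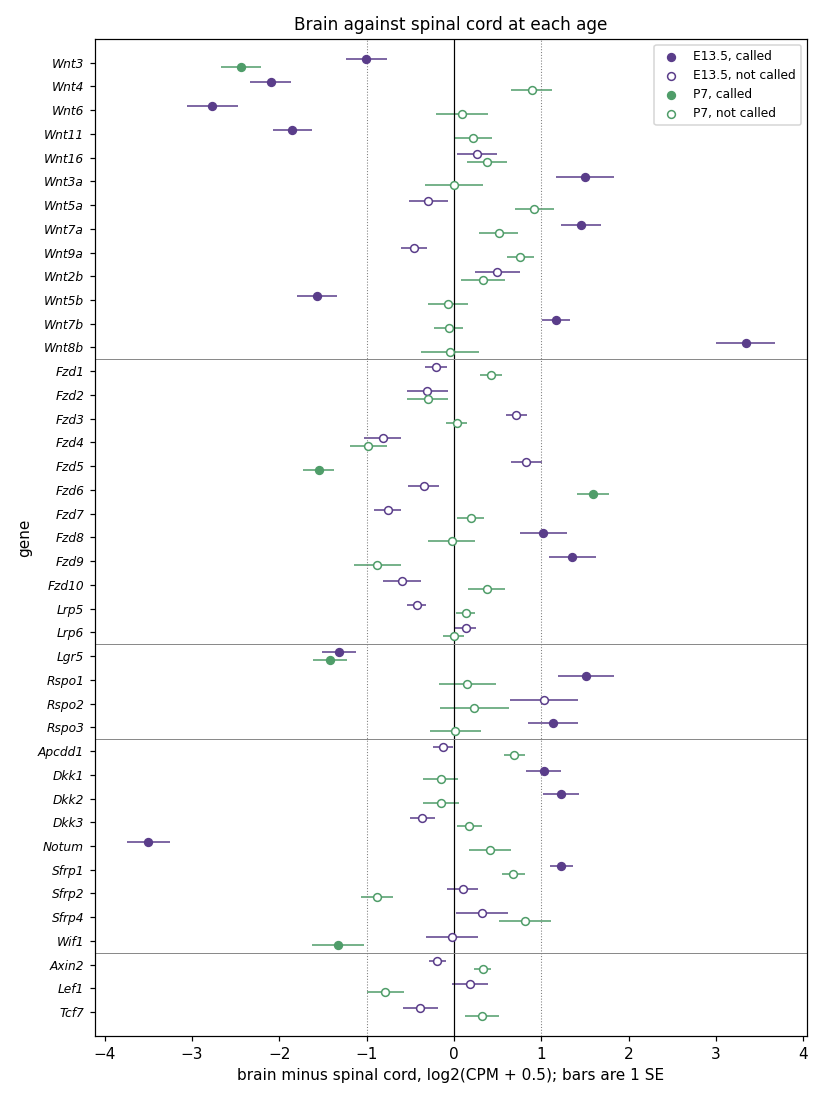
Brain minus spinal cord on the log2(CPM + 0.5) scale for the 41 tested genes (rows, grouped by role), at E13.5 (purple) and P7 (green). Bars are 1 SE, filled points were called and dotted lines mark the 2-fold limit. Filled points number 18 at E13.5 but 5 at P7, where points lie nearer to 0 for most genes called at E13.5.

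The region difference itself changed with age for 20 of 41 genes. The difference of brain minus cord was higher at P7 than at E13.5 for 8 genes (19.5%, against 6.66% of all tested genes) and lower for 12 (29.3%, against 9.66%), or 9 of 38 (23.7%) without Wnt3a, Wnt8b and Dkk1. This split rests on the scaling: it was 11 and 10 with TMM factors and 12 and 7 with median-ratio factors. The 8 were Notum (3.92, SE 0.34, adjusted p = 7.69e-06), Wnt4 (2.99, SE 0.33, adjusted p = 3.32e-05), Wnt6 (2.86, SE 0.42, adjusted p = 0.00025), Wnt11 (2.07, SE 0.31), Fzd6 (1.94, SE 0.26), Wnt5b (1.5, SE 0.32), Wnt9a (1.22, SE 0.21) and Wnt5a (1.21, SE 0.31). For Notum, Wnt6, Wnt11 and Wnt5b a cord excess at E13.5 was followed by overlapping regions at P7. Among the 12, the sizes were -2.38 (SE 0.25, adjusted p = 2.39e-05) for Fzd5, -2.23 (SE 0.38, adjusted p = 0.000663) for Fzd9, -1.43 (SE 0.33) for Wnt3, -1.38 (SE 0.29) for Dkk2, -1.31 (SE 0.42) for Wif1 and -1.23 (SE 0.23) for Wnt7b. Wnt8b, Wnt3a, Dkk1, Rspo1, Rspo3 and Fzd8 were the other members, of which Wnt8b, Wnt3a and Dkk1 were near 0 at P7.

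Several of these smaller changes lay near the limits and lost their call under many alternatives. The change for Fzd8 (-1.05) was lost when any P7 library, E13.5 brain replicate 3, E13.5 cord replicate 1 or E13.5 cord replicate 2 was left out, at values from -0.72 to -1.11, and under TMM (-0.86) and median-ratio scaling (-0.73). That for Rspo3 (-1.12) was lost without any P7 library, E13.5 brain replicate 1 or E13.5 cord replicate 2, at -0.69 to -1.21, and under TMM (-0.97) and median-ratio scaling (-0.85). Both also lost it with no filter and with P7 replicates 1 and 2 averaged, and Rspo3 with limma-voom. Rspo1 (-1.36) lost its call without E13.5 brain replicate 1, P7 brain replicate 1 or 2, or any P7 cord library (-1.04 to -1.39), and with limma-voom, edgeR or DESeq2 (-1.22, -0.71 and -0.80). Wif1 (-1.31) lost it without E13.5 brain or cord replicates 1 or 2, P7 brain replicate 3 or P7 cord replicate 3 (-0.97 to -1.28). Dkk1 (-1.18) lost its call without E13.5 cord replicate 3 (-0.99), and with a pseudocount of 1 (-0.81). Wnt3a (-1.5) lost it without E13.5 cord replicate 2 (-1.33), with P7 replicates 1 and 2 averaged (adjusted p = 0.0833), and with limma-voom (adjusted p = 0.136), edgeR (adjusted p = 0.488) and DESeq2 (adjusted p = 0.23). Wnt7a (-0.94), Sfrp2 (-0.98), Lef1 (-0.97), Fzd7 (0.95) and Fzd10 (0.97) were just inside the 2-fold limit and passed it in some of these fits.

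Of 56 further genes of the pathway, such as Wnt secretion, destruction complex, planar polarity and target genes, 54 were tested. With age 20 fell (37%, against 16.7% of all tested genes) and 2 rose (3.7%, against 11%) in brain. In spinal cord 22 fell (40.7%, against 18.2%) and 6 rose (11.1%, against 16.9%). In both regions 16 fell and 2 rose, where 11.8% and 8.6% of all tested genes did. The median difference was -0.44 in brain and -0.65 in cord, beside -0.19 and 0.12 over all tested genes. Celsr1, a planar polarity cadherin, fell in brain (-5.41, SE 0.30, adjusted p = 1.76e-08), from a mean of 88.8 to 1.67 CPM. Shisa2, which retains Frizzled proteins inside the cell, fell there (-3.22, SE 0.32), as did Ror1, a receptor for Wnt5a (-3.08, SE 0.20). In cord Lgr4, a receptor for R-spondins, fell (-3.17, SE 0.15, adjusted p = 2.42e-09), as did the target gene Sp5 (-2.91, SE 0.21) and Adgra2, the partner of Reck in Wnt7 signalling (-2.57, SE 0.17).

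The genes that rose with age were few. Rnf43, a ligase that removes Frizzled proteins and is itself a Wnt target, rose from a mean of 9.62 to 46.5 CPM in brain and from 7.26 to 34.9 CPM in cord, by 2.22 and 2.21 (SE 0.17 for each). Porcn, the enzyme that adds the lipid to Wnt proteins, rose by 1.13 in brain and 1.11 in cord (SE 0.10 for each). Ccnd1 and Myc, cell cycle genes that Wnt signalling can induce, rose in cord by 2.41 and 1.38 (SE 0.17 for each), while in brain their differences of 0.74 and 0.36 were not called. The core genes Ctnnb1, Gsk3b, Apc, Axin1, Dvl1 and Dvl2 were among 20 called in no comparison.

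Between regions, 5 of the 54 were higher in brain (9.26%, against 3.53% of all tested genes) and 3 in cord (5.56%, against 5.17%) at E13.5, and 3 were higher in brain (5.56%, against 2.27%) and 7 in cord (13%, against 4.35%) at P7. At E13.5 Shisa2 (2.09, SE 0.32), Frzb, a secreted Wnt antagonist (1.72, SE 0.12), and Celsr1 (1.58, SE 0.30) were higher in brain, and Shisa3 (-1.27, SE 0.29), Lgr4 (-1.14, SE 0.15) and Sp5 (-1.13, SE 0.21) in cord. At P7 Draxin, an axon guidance protein that binds Lrp6 (1.31, SE 0.12), Shisa3 (1.08, SE 0.29) and Tnfrsf19, a Wnt target (1.07, SE 0.10), were higher in brain, and Shisa2 (-1.98, SE 0.32), Prickle1, a planar polarity gene (-1.73, SE 0.19), and Celsr1 (-1.66, SE 0.30) in cord. Shisa2, Shisa3 and Celsr1 were thus called in opposite directions at the 2 ages. The change of the region difference was called higher for 8 (14.8%, against 6.66%) and lower for 8 (14.8%, against 9.66%), with Shisa3 (2.36, SE 0.40), Sp5 (1.62, SE 0.30) and Draxin (1.37, SE 0.17) the largest upward and Shisa2 (-4.07, SE 0.45), Celsr1 (-3.24, SE 0.43) and Frzb (-2.23, SE 0.17) the largest downward.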

How the data were processed

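Gene-level values of 12 libraries of sorted Pdgfra/GFP+ cells (stranded total RNA) were taken as deposited. The authors mapped reads to mm10 with STAR 2.5.0a, counted them on GENCODE M8 with featureCounts 1.5.0-p1, with fractional counts for multi-mapping reads rounded to whole numbers, and deposited CPM. The deposited values of 3 columns, E13.5 spinal cord 3 and P7 spinal cord 1 and 2, sum to more than CPM can and were treated as scaled signal, which has the same steps. In every library 100% of values were whole multiples of 1 read (tolerance 0.1 read), so reads could be recovered. Symbols came from GENCODE M21 (GRCm38) for 46574 of 47069 identifiers, of which 3 occurred more than once.

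The main test was limma 3.58.1 with an intensity trend on log2(CPM + 0.5), over the 18319 genes that reached 0.7 CPM in 3 or more libraries, all 4 groups sharing 1 estimate of the spread. The study used voom. The trend was chosen because the values were deposited as CPM. Voom on the recovered reads called 6134 genes for age in brain and 7558 in cord, against 5068 and 6436 with the trend. Alternatives were recomputed scaling, pseudocounts of 0.1 and 1, other filters, limma-voom, edgeR 4.0.16 and DESeq2 1.42.0 on recovered reads, and leaving out each library. The edgeR quasi-likelihood test called 6159 genes for age in brain and 7501 in cord, against 5068 and 6436. Scripts were tested on simulated data. Genes called in any comparison are named with values, per library where a group mean reached 10 CPM or a change passed 8-fold. Of the other pathway genes, the 3 largest called in each direction are named, with Tcf7l1 and Tcf7l2 added. The members and lists were chosen with earlier results of these data known. The study describes pooled biological replicates, and p-values measure the spread between libraries. P7 replicates 1 and 2 were nearly alike in both regions and were averaged in an alternative. In brain Ttr was at 54.7 and 54.8 CPM in them, against 484 CPM in replicate 3. In cord it was at 145 and 144 CPM, against 0.372 CPM. Whether replicates 1 and 2 are separate pools cannot be told, so the spread at P7 may be understated. A fit without a P7 replicate 3 rests on replicates 1 and 2 in that group.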

Additional observations from a re-analysis of the deposited data

Results flagged for a closer look

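For 20 genes the difference between brain and spinal cord changed between E13.5 and P7 by a test of that change itself (limma, Benjamini-Hochberg over 18319 genes). Of the 41 tested, 8 changed upward (19.5%, against 6.66% of all tested genes) and 12 downward (29.3%, against 9.66%). On the log2(CPM + 0.5) scale, as brain minus cord at P7 less the same at E13.5, the upward changes were 3.92 for Notum, 2.99 for Wnt4, 2.86 for Wnt6, 2.07 for Wnt11, 1.94 for Fzd6, 1.5 for Wnt5b, 1.22 for Wnt9a and 1.21 for Wnt5a. The downward changes were -3.39 for Wnt8b, -2.38 for Fzd5, -2.23 for Fzd9, -1.5 for Wnt3a, -1.43 for Wnt3, -1.38 for Dkk2, -1.36 for Rspo1, -1.31 for Wif1, -1.23 for Wnt7b, -1.18 for Dkk1, -1.12 for Rspo3 and -1.05 for Fzd8. Wnt8b, Wnt3a and Dkk1 passed the filter through E13.5 brain alone, so a difference was bound to appear for them. Without them 9 of 38 (23.7%) changed downward. Their values, with few reads at P7, depend on the pseudocount.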

How the results depend on the processing

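Of 96 called differences of these genes, 81 kept their call in every alternative in which the gene was tested and 15 lost it in at least 1, and none changed sign. Wnt3a, Wnt8b and Dkk1, with 9 of the calls, fail the filter when an E13.5 brain library is left out, and Wnt3a and Dkk1 also fail a filter of 2 CPM. The genes called between regions at P7 numbered 5, and 8 with DESeq2, since Sfrp4, Wnt16 and Fzd4 also passed the 2-fold limit. Leaving out each library gave 20 to 24 called genes for age in brain (24 with all), 28 to 29 for age in cord (29), 13 to 18 for region at E13.5 (18), 5 to 7 for region at P7 (5) and 17 to 21 for the region difference's change (20). With P7 replicates 1 and 2 averaged the counts were 23, 29, 18, 5 and 17. A replicate block gave 24, 29, 18, 5 and 19, the Rspo1 change (adjusted p = 0.0508) being lost, and a replicate block within age gave 18, 5 and 20 for the region comparisons. By their labels the libraries of the regions share only a number. The correlations of same-numbered deviations were 0.314, 0.082 and 0.412 at E13.5 and 0.013, 0.025 and 0.044 at P7. At both ages brain replicates 1 and 3 correlated best with the cord replicate of the same number, and brain replicate 2 with cord replicate 1. Whether same-numbered libraries were handled together is not stated. The precision is limited by 3 libraries per group and, for genes near 0.7 CPM, by the floor of 3 reads. At P7 it is limited further, since replicates 1 and 2 were nearly alike.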
